A study of Mus musculus with 6 samples.

Results

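The 8 genes described here encode chemokines and cytokines that gut epithelium can make to call in, keep or feed immune cells, leaving out the ligands of CXCR3. They were chosen by symbol and are Cx3cl1, Csf1, Cxcl1, Ccl20, Cxcl16, Ccl25, Ccl28 and Il15. All 8 were found among the 23127 genes of the table, and all 8 passed the filter on low values that 16095 genes passed. Their RNA was measured in 6 libraries of small-intestinal cells sorted for high Lgr5-GFP, a reporter of the crypt base stem cell receptor gene Lgr5, from C57BL/6 mice. There were 3 libraries of cells kept for 1.5 h with 1 ng/ml interferon gamma (IFNg) in ENR medium, which holds EGF, Noggin and R-spondin1 (IFNg 6, 2 and 10), and 3 libraries labelled as having had no treatment (untreated 5, 1 and 9). Both groups carry the Lgr5-GFP reporter. The sources used here do not give the age of the mice, how many mice lie behind a library, how long untreated cells stood in medium, or what the tags GFP1 (IFNg 6 and untreated 5) and GFP3 (the other 4 libraries) in the titles mean. The titles of all 6 libraries carry the number 1.5, without saying what it stands for in the untreated ones. Libraries with neighbouring title numbers (6 and 5, 2 and 1, 10 and 9) are treated as presumed pairs, because their deviations from the group means went together. Values are scaled counts, meaning reads per gene divided by 1 size factor per library, and since nothing says the libraries are separate animals or cultures, each p reflects only how far these libraries scatter, which may be technical in part.

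Chemokines are small secreted proteins that guide leukocytes through G protein-coupled receptors. Fractalkine, made from Cx3cl1, and the Cxcl16 protein are unusual in being made as membrane-anchored proteins that adhere to cells with their receptors, CX3CR1 and CXCR6, until the proteases ADAM10 and ADAM17 release them. Cxcl1 draws neutrophils through CXCR2, Ccl20 draws CCR6-bearing lymphocytes and dendritic cells, Ccl25 is the small-intestinal homing signal for CCR9-bearing T cells, and Ccl28 draws CCR10-bearing plasma cells. Csf1 is the growth factor of macrophages, and Il15 sustains natural killer cells and intraepithelial lymphocytes when it is held out to them by the receptor chain Il15ra. Among the genes that IFNg induces is Irf1, a transcription factor that binds interferon-stimulated response elements.

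Cx3cl1 and Csf1 were the 2 genes of the 8 whose IFNg and untreated libraries stood apart, both upward. A complete separation upward was found for 8.13% of all genes tested, and one downward for 5.06%. Cx3cl1 averaged 19486 ± 12800 scaled counts after IFNg and 1871 ± 1142 in untreated cells (SD, n = 3 each), a 10.4-fold ratio. Csf1 averaged 385 ± 208 scaled counts after IFNg and 56.8 ± 16.3 in untreated cells, a 6.78-fold ratio. The other 6 genes had ratios of means between 0.701 for Ccl28 and 1.34 for Il15, and their groups overlapped. In limma on all 6 libraries 0 of 8 members passed at an adjusted p under 0.05, while 2 had an unadjusted p under 0.05. Among all genes tested 0.416% passed as higher and 0.0124% as lower, and 8.46% were higher and 0.758% lower at an unadjusted p under 0.05. Both members were higher. With the presumed pairs as a block, Cx3cl1 and Csf1 both passed as higher and 0 of 8 as lower, where 0.46% and 0.00621% of all genes did. The median log2 change was 0.23 over the 8 genes and -0.08 over all genes tested.

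**Figure D1:**
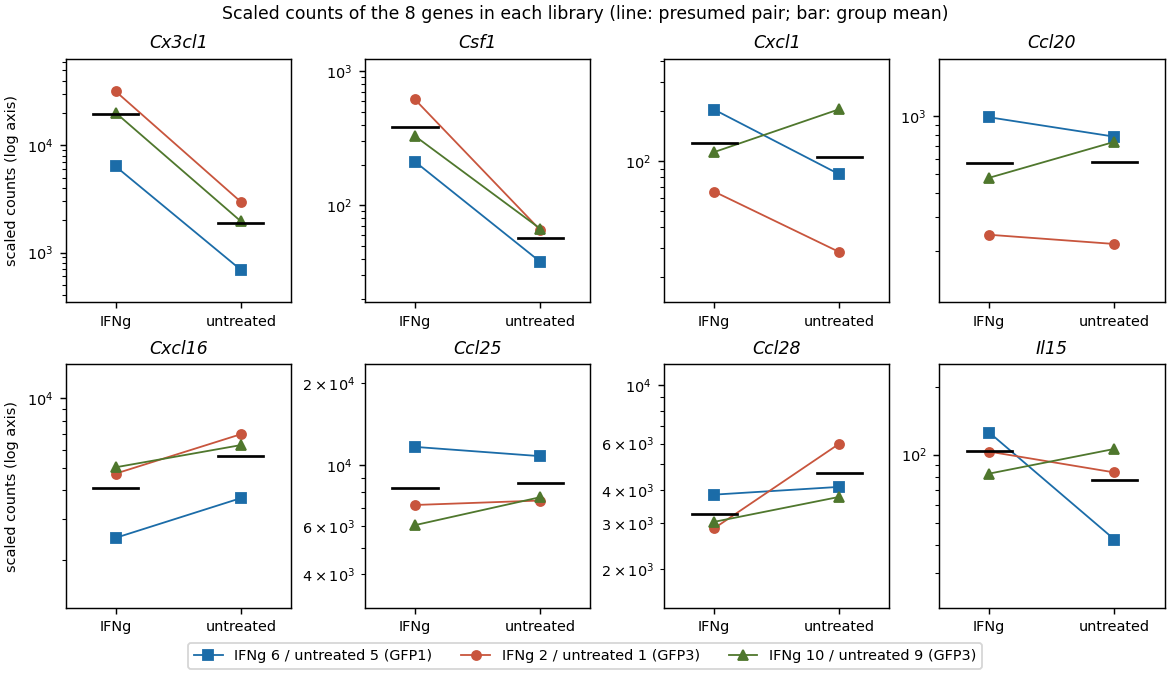
Scaled counts (log axis) of each of the 8 genes in the 3 IFNg libraries and the 3 untreated libraries. Lines join the presumed pairs, with the tag from the sample title in the legend, and black bars are group means. Only in the panels of Cx3cl1 and Csf1 do all 3 IFNg libraries lie above all 3 untreated libraries, as for 8.13% of all genes tested.

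Promoter sequence is shown for the pair of genes that were higher with the block and for 2 members of the inflammatory kind that were not, Cxcl1 and Ccl20. The sequences are from RefSeq (GRCm38.p6, the same build as mm10) and run 5′ to 3′ up to the annotated start. For Cx3cl1 and Cxcl1 only the stretch before the first annotated transcript is printed, 79 and 246 bases. The 250 bases before each RefSeq start were searched on both strands for TTCNNNGAA (gamma-activated site), for GAAA, any 2 bases and GAAA (core of the interferon-stimulated response element), and for GGGA, any 4 bases and CC (a kappaB-like pattern, with letters chosen after the sequences had been read). Capitals mark matches, and overlapping matches run together.
Cx3cl1 (chr8:94771930-94772008, plus strand): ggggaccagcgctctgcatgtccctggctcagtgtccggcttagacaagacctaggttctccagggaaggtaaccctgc
Csf1 (chr3:107760470-107760719, minus strand): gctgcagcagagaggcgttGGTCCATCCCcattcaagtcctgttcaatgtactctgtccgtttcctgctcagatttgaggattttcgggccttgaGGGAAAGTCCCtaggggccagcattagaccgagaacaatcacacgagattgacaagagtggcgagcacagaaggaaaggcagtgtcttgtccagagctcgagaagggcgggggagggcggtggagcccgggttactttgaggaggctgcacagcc
Cxcl1 (chr5:90890995-90891240, plus strand): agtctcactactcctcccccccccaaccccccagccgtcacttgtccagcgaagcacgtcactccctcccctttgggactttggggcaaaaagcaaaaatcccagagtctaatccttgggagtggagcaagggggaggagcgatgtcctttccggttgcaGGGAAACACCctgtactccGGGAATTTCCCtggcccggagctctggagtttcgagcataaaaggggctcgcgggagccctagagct
Ccl20 (chr1:83116516-83116765, plus strand): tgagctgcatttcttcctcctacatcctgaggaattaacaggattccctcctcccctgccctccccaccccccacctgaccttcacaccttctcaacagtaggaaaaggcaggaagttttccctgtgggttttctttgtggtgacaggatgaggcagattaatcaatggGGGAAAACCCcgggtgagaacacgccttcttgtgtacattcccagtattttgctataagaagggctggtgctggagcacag

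The kappaB-like pattern was found 3 times before Csf1, 3 times before Cxcl1 and 1 time before Ccl20. It was absent from the windows of Cx3cl1, Ccl25 and Ccl28. Before Csf1 and before Cxcl1, 2 of the 3 matches start 1 base apart, in 1 stretch read on opposite strands. The pattern was present in 17.6% of the 32851 windows of the same length in the RefSeq table. The other 2 patterns matched in none of the 7 windows held for 6 members, Cx3cl1 included, against 7.02% of all windows for the gamma-activated site and 2.98% for the response element core. Ccl25 had 2 of these windows, and Cxcl16 and Il15 had none. A match or its lack describes letters in these windows and says nothing of binding.

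Cx3cl1 (ENSMUSG00000031778, mm10 chromosome 8, 94772009 to 94782427, plus strand) encodes fractalkine, which tethers CX3CR1-bearing macrophages and lymphocytes. It had 6364, 31937 and 20156 scaled counts in IFNg 6, 2 and 10, against 689, 2969 and 1955 scaled counts in untreated 5, 1 and 9. The groups did not overlap, and the lowest IFNg library had more than the highest untreated one. Such a complete separation upward was found for 8.13% of all genes tested, and a complete separation downward for 5.06%.

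Levels of Cx3cl1 varied widely within a group, by 5.02-fold between IFNg 6 and IFNg 2 and by 4.31-fold between untreated 5 and untreated 1. The order of the libraries was the same in both groups once neighbouring title numbers were taken as pairs. Within the pairs the ratio of IFNg to untreated was 9.24 for libraries 6 and 5, 10.8 for 2 and 1, and 10.3 for 10 and 9. These ratios differed far less than the levels they were formed from. In limma the log2 change was 3.33 ± 0.664 (SE) without the block, with an adjusted p of 0.117, and 3.33 ± 0.168 with the block, with an adjusted p of 5.09e-04. The pairs were taken from deviations in these same data. Near-equal ratios within pairs and the p with the block are therefore not independent of that choice. DESeq2 gave an adjusted p of 1.29e-05 and edgeR one of 0.121. Both genes passed as higher in DESeq2 and 0 members passed as lower, where 2.84% and 0.0497% of all genes did. In edgeR 0 members passed in either direction, where 0.373% of all genes were higher and 0.0124% lower.

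Csf1 (ENSMUSG00000014599, chromosome 3, 107741048 to 107760469, minus strand) encodes the macrophage colony-stimulating factor. It had 212, 615 and 328 scaled counts in IFNg 6, 2 and 10, against 37.9, 65.4 and 66.9 scaled counts in untreated 5, 1 and 9. The groups did not overlap here either. The gene was read thinly, with 248, 638 and 374 reads in the IFNg libraries and 36, 76 and 65 reads in the untreated libraries. The exact 95% Poisson interval for the lowest of these, untreated 5, was 25.2 to 49.8 reads, and for the lowest IFNg library, IFNg 6, it was 218 to 281 reads. The ratios within pairs were 5.58 for 6 and 5, 9.41 for 2 and 1, and 4.90 for 10 and 9.

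The log2 change of Csf1 was 2.65 ± 0.462 (SE) in limma, with an adjusted p of 0.0584, just outside the threshold. With the block it was 2.65 ± 0.316 with an adjusted p of 0.0278. DESeq2 gave an adjusted p of 2.69e-06 and edgeR one of 0.0639. Without untreated 5 the limma adjusted p was 0.0464, where 2.27% of all genes were called higher. Without IFNg 6 it was 0.0433 for Csf1 and 0.0412 for Cx3cl1, where 0.454% were. Neither gene passed in limma without IFNg 2, IFNg 10, untreated 1 or untreated 9. The adjusted p in that order was 0.316, 0.225, 0.192 and 0.172 for Csf1, and 0.395, 0.404, 0.169 and 0.298 for Cx3cl1. For Cx3cl1 it was 0.0644 without untreated 5, also above the threshold. In the 4 libraries tagged GFP3 both genes passed, with adjusted p of 0.00142 for Cx3cl1 and 0.00477 for Csf1, but so did 8.27% of all genes as higher (1331 genes, against 67 with all 6 libraries).

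**Figure D2:**
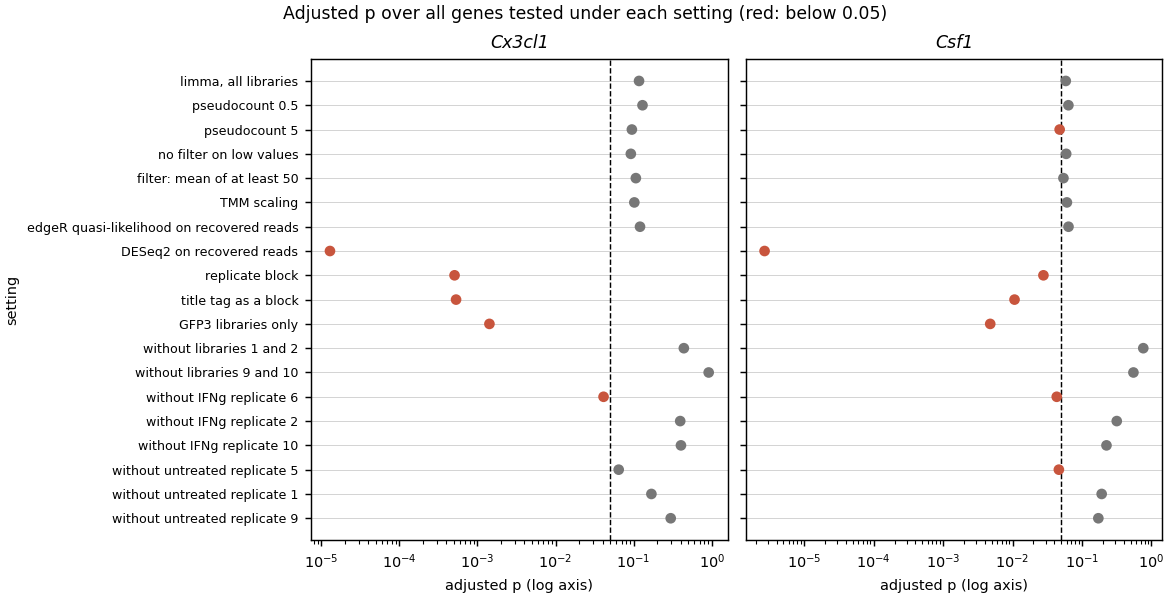
Adjusted p over all genes tested (log axis) for Cx3cl1 and Csf1 under each setting listed on the vertical axis. The dashed line is 0.05 and red points lie below it. The block, the title tag as a block, DESeq2 and the GFP3 libraries alone put both genes below the line, while leaving out libraries 1 and 2 or 9 and 10 moved both away from it.

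Cxcl16 (ENSMUSG00000018920, chromosome 11, 70453983 to 70459984, minus strand) encodes the other membrane-anchored chemokine. It had 2494, 4722 and 5029 scaled counts in IFNg 6, 2 and 10, against 3702, 6989 and 6272 scaled counts in untreated 5, 1 and 9. The groups overlapped, because untreated 5 lay below 2 of the IFNg libraries. Within pairs the ratios of IFNg to untreated were 0.674, 0.676 and 0.802 for libraries 6 and 5, 2 and 1, and 10 and 9. The IFNg library was thus the lower one in 3 of 3 pairs, as it was for 22.4% of all genes tested. The log2 change was -0.48 ± 0.364 (SE; limma adjusted p = 0.859), and -0.48 ± 0.171 with the block (adjusted p = 0.359, unadjusted p = 0.0272). The gene overlaps Zmynd15 on the other strand by 552 bases, so its reads are uncertain at that end. Zmynd15 itself had 162 to 354 scaled counts over all libraries.

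Ccl28 (ENSMUSG00000074715, chromosome 13, 119623819 to 119654359, plus strand), the mucosal ligand for plasma cells, was also lower after IFNg in each pair without passing. It had 3840, 2858 and 3025 scaled counts in IFNg 6, 2 and 10, against 4109, 5999 and 3765 in untreated 5, 1 and 9. IFNg 6 lay above untreated 9, so the groups overlapped. The ratios within pairs were 0.934, 0.476 and 0.803 in the same order of pairs, and untreated 1 was the library that stood highest. In limma the gene differed by a log2 change of -0.49 ± 0.277 (SE; adjusted p = 0.721, and 0.410 with the block).

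Ccl25 (ENSMUSG00000023235, chromosome 8, 4325210 to 4360020, plus strand), the homing chemokine of small-intestinal T cells, averaged 8288 ± 2979 scaled counts after IFNg and 8621 ± 1882 in untreated cells (SD, n = 3 each). It had 11667, 7157 and 6041 scaled counts in IFNg 6, 2 and 10, against 10791, 7430 and 7642 in untreated 5, 1 and 9. The 2 libraries tagged GFP1, IFNg 6 and untreated 5, were the highest, whatever the treatment. Its log2 change was -0.09 ± 0.314 (SE; limma adjusted p = 0.965). Its sign turned without IFNg 10, without untreated 5 and without libraries 9 and 10. The gene overlaps Elavl1 on the other strand by 204 bases, so its reads are uncertain at that end. Elavl1 had 7521 scaled counts in IFNg 10, above the 6041 of Ccl25 there, and 828 to 2097 in the other libraries.

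Ccl20 (ENSMUSG00000026166, chromosome 1, 83116766 to 83119167, plus strand), the ligand of CCR6, had 985, 243 and 479 scaled counts in IFNg 6, 2 and 10. In untreated 5, 1 and 9 it had 782, 218 and 735. The spread within each group was larger than the difference between the group means, 569 ± 379 after IFNg and 578 ± 313 in untreated cells, and libraries 1 and 2 were the lowest of their groups. Its log2 change was -0.04 ± 0.615 (SE; limma adjusted p = 0.990), and its sign turned without IFNg 2, untreated 5, untreated 9, or libraries 9 and 10.

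Cxcl1 (ENSMUSG00000029380, chromosome 5, 90891241 to 90893115, plus strand), the neutrophil chemokine, was among the least read of the 8 genes. It had 204, 65.6 and 113 scaled counts in IFNg 6, 2 and 10, against 83.2, 28.4 and 205 in untreated 5, 1 and 9. The pairs went in different directions, with ratios of 2.45 for 6 and 5, 2.31 for 2 and 1, and 0.552 for 10 and 9. The log2 change was 0.54 ± 0.707 (SE; limma adjusted p = 0.910), and it was -0.18 without untreated 1. The lowest library, untreated 1, had 33 reads, with an exact 95% Poisson interval of 22.7 to 46.3.

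**Figure D3:**
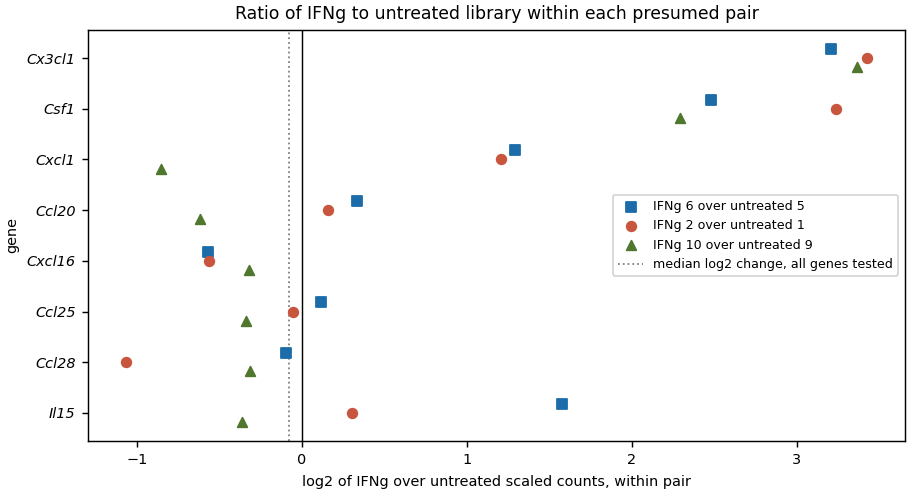
Log2 ratio of the IFNg library to its presumed untreated partner for each gene (3 pairs per gene). The solid line marks no difference and the dotted line the median log2 change of all genes tested, -0.08. The 3 ratios of Cx3cl1 lie close together between 9.24-fold and 10.8-fold, those of Csf1 between 4.90-fold and 9.41-fold, and those of Cxcl1, Ccl20, Ccl25 and Il15 fall on both sides of the solid line.

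Il15 (ENSMUSG00000031712, chromosome 8, 82331632 to 82403222, minus strand) had 125, 103 and 82.5 scaled counts in IFNg 6, 2 and 10, against 42.1, 83.5 and 106 in untreated 5, 1 and 9. Only untreated 5 stood well below the rest. The ratios within pairs were 2.98, 1.24 and 0.777 for 6 and 5, 2 and 1, and 10 and 9. The log2 change was 0.50 ± 0.440 (SE; limma adjusted p = 0.880), and -0.03 in the GFP3 libraries alone. The change in the GFP3 libraries minus that in the GFP1 libraries was -1.58 ± 0.661 (SE; interaction adjusted p = 0.353, unadjusted p = 0.0421), with 1 GFP1 library per group. In limma 0 of the 8 genes and 0 of all genes tested passed for this interaction, although 2117 had an unadjusted p under 0.05. Il15 held 40 to 147 reads per library.

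The receptor chain that presents IL-15 did rise. Il15ra had 1457, 2098 and 1940 scaled counts in IFNg 6, 2 and 10, against 315, 539 and 576 in untreated 5, 1 and 9. The groups did not overlap, a separation upward that 8.13% of all genes tested had, and the mean was 3.84-fold higher after IFNg. The log2 change was 1.97 ± 0.321 (SE; limma adjusted p = 0.0446, 0.0149 with the block, 1.53e-06 in DESeq2). The call was lost in edgeR (adjusted p = 0.0571), without IFNg 10 (0.205), IFNg 2 (0.292), IFNg 6 (0.0508), untreated 1 (0.129) or untreated 9 (0.110), and without libraries 1 and 2 (0.684) or 9 and 10 (0.485). With 1 library left out the log2 change ran from 1.70 to 2.13. The ratios within pairs were 4.62, 3.90 and 3.37 for 6 and 5, 2 and 1, and 10 and 9.

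Of 12 receptor genes for the 8 ligands, 10 were in the table, 3 had enough reads to be tested and Il15ra was the 1 that passed. The next highest were Csf1r, the receptor of Csf1, at 2.89 to 9.65 scaled counts in IFNg libraries and 0.860 to 36.9 in untreated libraries, and Ccr9, the receptor of Ccl25, at 1.75 to 28.1 and 2.58 to 20.6. The fractalkine receptor Cx3cr1 was at 0 in IFNg 6, IFNg 2 and untreated 5, and at 11.4 scaled counts at most. A count of 0 allows up to 2.56 to 3.16 scaled counts in a library. Of 4 genes for shedding of membrane-anchored ligands, 0 passed in limma, edgeR or DESeq2 and 0 had an unadjusted p under 0.05. The most abundant were Adam10, with a log2 change of 0.10 (adjusted p = 0.966 in limma), and Rhbdf1, a rhomboid-like partner of ADAM17, with one of 0.17 (0.949). Of 5 atypical chemokine receptors 3 were tested and 0 passed in limma, edgeR or DESeq2, with 0 at an unadjusted p under 0.05. Ccrl2 and the scavenger Ackr3 were the most abundant, with log2 changes of 0.77 and 0.63.

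**Figure D4:**
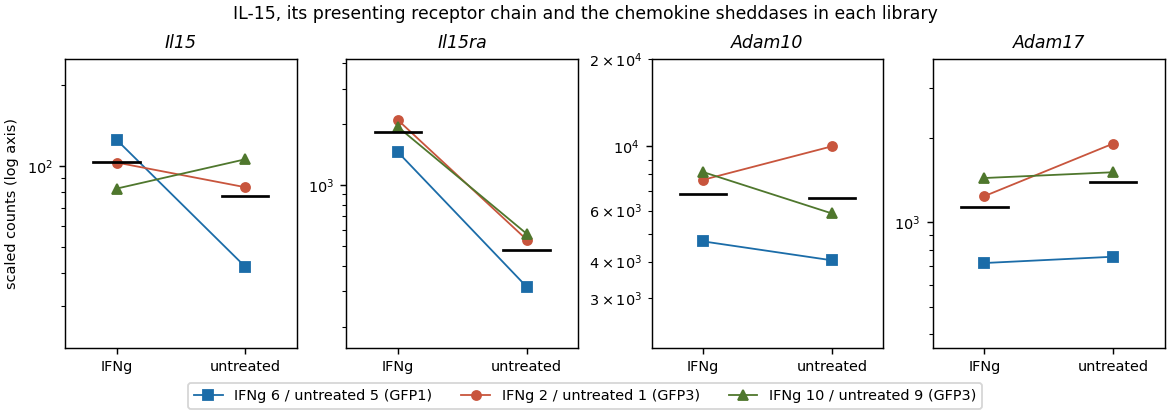
Scaled counts (log axis) of Il15, its presenting chain Il15ra and the proteases Adam10 and Adam17 in each library. Lines join the presumed pairs and bars are group means. Il15ra is higher in every IFNg library than in every untreated library, while the groups overlap for the other 3 genes.

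To compare levels between genes, scaled counts were divided by the length of all annotated exons of a gene. Among the 8 members, the mean level per kb after IFNg (± SD, n = 3) ran Cx3cl1 (4958 ± 3257), Cxcl16 (1351 ± 458), Ccl25 (1113 ± 400.1), Ccl28 (669 ± 108), Ccl20 (400.4 ± 267), Csf1 (72.9 ± 39.3), Cxcl1 (68.0 ± 37.5) and Il15 (45.9 ± 9.49). In untreated cells the mean level per kb ran Cxcl16 (1872 ± 572), Ccl25 (1158 ± 253), Ccl28 (955 ± 248), Cx3cl1 (476 ± 291), Ccl20 (407 ± 220), Cxcl1 (56.3 ± 48.2), Il15 (34.2 ± 14.3) and Csf1 (10.7 ± 3.09). Cx3cl1 thus stood at the head of the list after IFNg and at the fourth place without it. Its mean level was above that of 98.1% of tested genes after IFNg and 77.5% in untreated cells. After IFNg the 3 libraries of neighbouring genes overlapped except between Ccl25 and Ccl28 and between Ccl20 and Csf1. In untreated cells they overlapped except between Ccl28 and Cx3cl1, Ccl20 and Cxcl1, and Il15 and Csf1. Csf1 stood above 42.0% of tested genes after IFNg and 15.9% in untreated cells.

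Summed over the 24 chemokine ligand genes with a row in the table, the level was 25054 ± 2576 scaled counts per kb after IFNg and 11093 ± 5116 in untreated cells (SD, n = 3 each). Cx3cl1 held 7.31%, 30.1% and 19.7% of that sum in IFNg 6, 2 and 10, against 2.39%, 8.37% and 2.94% in untreated 5, 1 and 9. It was higher in 3 of 3 pairs, but IFNg 6 lay below untreated 1, so the shares overlapped. The CXCR3 ligands Cxcl9, Cxcl10 and Cxcl11, which draw activated T cells, held 43.9% to 62.3% after IFNg and 0.729% to 2.31% in untreated cells. The 15 other chemokine ligands held 9.57% to 23.0% after IFNg and 38.7% to 69.0% in untreated cells. Cxcl16, Ccl25 and Ccl28 each held a smaller mean share after IFNg, 5.31%, 4.59% and 2.72%, against 18.2%, 12.3% and 9.96% in untreated cells. Their untreated shares ran from 12.3% to 25.6%, 6.07% to 19.8% and 4.59% to 13.7%. Ccl25 held 7.08% in IFNg 6, so its shares overlapped. The smaller shares after IFNg are parts of a larger sum, and none of the 3 genes passed in its own right.

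**Figure D5:**
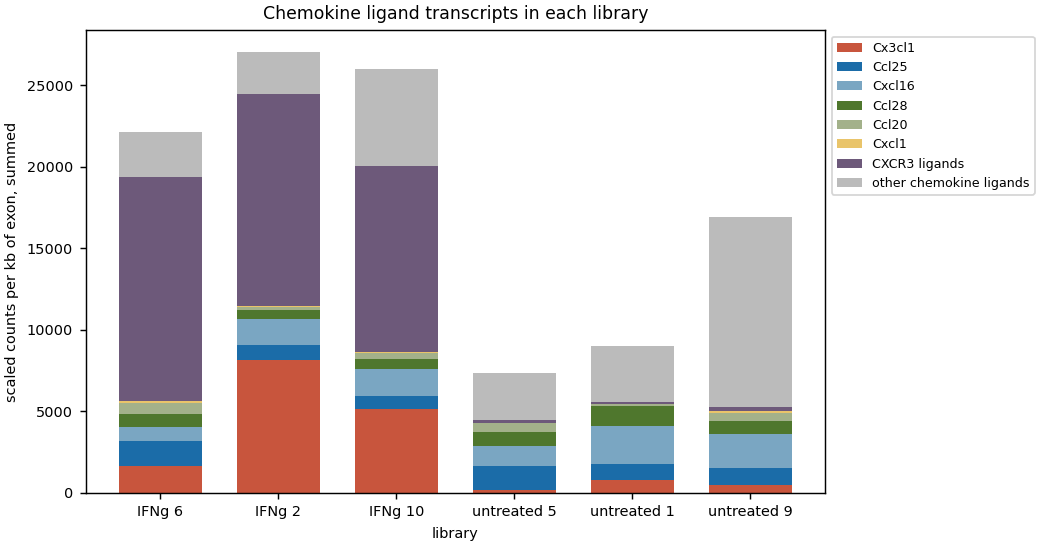
Summed level of chemokine ligand transcripts, in scaled counts per kb of exon, in each library, split into 6 of the genes described, the CXCR3 ligands and the other chemokine ligands. The 3 IFNg libraries sum to 22139 to 27026 and the 3 untreated libraries to 7330 to 16918. CXCR3 ligands hold 43.9% to 62.3% of the sum after IFNg and Cx3cl1 holds 7.31% to 30.1%.

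In the lists of related genes, the remaining chemokine ligands had 15 of 29 genes in the table and 6 tested, of which 0 passed in limma, edgeR or DESeq2 and 0 had an unadjusted p under 0.05. Ccl6 and Ccl9 were the most abundant of these, with log2 changes of -0.57 and -0.20. Of 18 tested other cytokines and growth factors 0 passed in limma, edgeR or DESeq2 and 1 had an unadjusted p under 0.05. The interleukin-1 receptor antagonist Il1rn and the stem cell factor Kitl, the most abundant, had log2 changes of -0.88 and 0.08. All 3 CXCR3 ligands rose in limma, by log2 changes of 6.57 for Cxcl10, 5.89 for Cxcl11 and 5.32 for Cxcl9. Of 13 genes of the IFNg receptor, JAK-STAT and IRF core, 6 rose in limma and 5 with the block: Irf1, Irf8, Irf9, Stat2, Socs1 and Socs3 passed, and Stat2 did not with the block (adjusted p = 0.0691), in edgeR (0.0554), or without IFNg 10 (0.119), IFNg 2 (0.157), IFNg 6 (0.0670), untreated 9 (0.120), libraries 1 and 2 (0.0902) or libraries 9 and 10 (0.379). Without libraries 1 and 2 Irf9 (adjusted p = 0.183) and Socs3 (0.0638) also missed the limma threshold, and without libraries 9 and 10 Irf9 (0.196) and Irf8 (0.0651) did. The receptor chain Ifngr1, the most abundant after Irf1, had a log2 change of -0.71 (adjusted p = 0.561). Of 14 NF-kB subunits and inhibitors 0 passed in limma or edgeR, 5 had an unadjusted p under 0.05 and 4 passed in DESeq2. The most abundant of them, the inhibitor Nfkbia and the kinase Ikbkb, showed log2 differences of 1.16 (adjusted p = 0.286 in limma and 0.0191 in DESeq2) and -0.38 (0.880 in limma).

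The genes whose pattern over the 6 libraries was most like that of a member were found by Pearson correlation of log2(scaled count + 1) over 16094 other tested genes, as a description. For Cx3cl1 these were Rnf31 (r = 0.996) and Hk2 (0.995), and for Csf1 they were Cyp4b1 (0.995) and Trim25 (0.991). For Cxcl16 they were Dennd5a (0.997) and Phka1 (0.996), for Ccl28 Lcor (0.997) and Fgfr1op (0.993), and for Ccl25 Polr2j (0.999) and Gm13461 (0.999). For Ccl20 they were Reg1 (0.992) and Anxa13 (0.988), for Cxcl1 Hnrnph1 (0.982) and Ptcra (0.981), and for Il15 Plscr1 (0.993) and Usp35 (0.989). With 6 points and this many genes searched, values near 1 are easily reached.

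The libraries held 28508762 to 40224497 reads in genes. The GFP1 libraries IFNg 6 and untreated 5 had 19734 and 20216 genes above 0, against 21301 to 22371 in the other 4. In both, at least 24.5% of reads had more than 1 alignment, against 18.5% to 23.9% in the others. They were the lowest of their groups for Cx3cl1, Csf1 and Cxcl16 and the highest for Ccl25 and Ccl20. The part of these differences in the gene levels was not tested. The defining markers of the sorted cells were present, with Olfm4 at 225396 to 240556 scaled counts in IFNg libraries and 219689 to 266604 in untreated libraries, and Lgr5 at 2484 to 5310 and 2801 to 8499. The 8 Paneth cell markers summed to 23695 to 199587 in IFNg libraries and 101816 to 355987 in untreated libraries, with a median log2 change of -1.03 and 0 of 8 passing in limma, edgeR or DESeq2, with 0 at an unadjusted p under 0.05. Goblet cell markers summed to 76771 to 152745 in IFNg libraries and 66136 to 233374 in untreated libraries. Enterocyte markers summed to 40433 to 49540.5 and 47745 to 52849, and enteroendocrine markers to 6917 to 24599 and 8456 to 33445. M cell markers (6 of 7 with a row) summed to 7591 to 10401 and 6353 to 11411, and tuft cell markers to 1880 to 2682 and 1536 to 2347. In each of these lists the groups overlapped and 0 markers passed in limma or DESeq2. The stem cell list held 14 genes, among them the general epithelial genes Epcam, Cdh1 and Krt8. Of the 14 genes Epcam alone passed in DESeq2 (3.68-fold, adjusted p = 0.0220), and 0 passed in limma or edgeR, with 3 at an unadjusted p under 0.05. Those 3 were Epcam, Smoc2 (2.20-fold, limma unadjusted p = 0.0222) and Ascl2 (1.92-fold, 0.0424), each higher after IFNg. Over the 14 listed genes the median log2 change was -0.07, and 6 had one above 0. The part of these shifts in the members' values was not tested. Macrophage and dendritic cell markers, 7 of 10 with a row, summed to 282 to 391 and 284 to 423. T, NK and innate lymphoid cell markers, 7 of 13 with a row, summed to 29.8 to 66.5 and 31.8 to 62.8, and endothelial markers, 6 of 7, to 81.0 to 163 and 32.7 to 193. Fibroblast and muscle markers, 9 of 10, summed to 56.3 to 221 and 66.4 to 448. The summed levels of these 4 lists in the groups overlapped. B and plasma cell markers, 6 of 6, summed to 144 to 317 in IFNg libraries and 76.2 to 142 in untreated libraries, without overlap. The highest of these sums, in IFNg 2, held 200.5 scaled counts of Jchain. Neutrophil markers, 2 of 5, summed to 93.8 to 150 and 51.6 to 99.0, which overlapped. Of these Ly6g was 2.63-fold higher after IFNg (unadjusted p = 0.0198, adjusted p = 0.385 in limma). The other, Mpo, averaged 43.7 scaled counts after IFNg and 45.6 in untreated cells, a ratio of 0.960. In limma, edgeR or DESeq2 0 markers of these 6 lists passed, and their part in the members' values was not tested. In bulk RNA, fewer cells of a type and less RNA per cell cannot be told apart.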

How the data were processed

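RNA was measured in 3 IFNg and 3 untreated libraries. Per the labels' protocols, cDNA made from 2 ng of total RNA with a SMART-Seq v4 kit had 12 PCR cycles, and 10 ng of it had 8 more in a KAPA Hyper preparation. These kits add no molecular identifiers and mark no strand, so intervals and floors cover counting error only. The authors deposited, per the name of their table, a scaled count signal for each gene, the reads divided by a size factor. The submitters' processing notes name mm10, DESeq 1.22.1, HTSeq 0.5.3, STAR 2.5.0a and Cutadapt 1.6. Annotation and strand setting: not given in the sources used here. Dividing each library by the worth of 1 read gave whole reads, to within 0.01, in 100% of 138762 cases. The 4 rows for reads in no gene took no part in library sizes or tests. They held 18.5% to 25.0% (several alignments), 9.67% to 14.2% (outside genes), 8.83% to 15.4% (unaligned) and 0.948% to 1.20% (ambiguous) of all values.

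Genes averaging 10 or more scaled counts (16095) entered the main test, limma 3.58.1 (R 4.3.3), two-sided, with a robust trended prior. Its input was log2(scaled count + 1), a scale that understates changes of low genes. Benjamini-Hochberg adjustment ran over all tested genes, with a threshold of 0.05. A fold is a ratio of group means of scaled counts. On recovered reads, edgeR 4.0.16 (quasi-likelihood, TMM) called 60 genes higher and DESeq2 1.42.0 called 457. These 2 tools, other pseudocounts, filters, scalings, blocks and subsets of libraries were alternatives. Groups and replicate names came from the titles. The titles number no pairs, but deviations from group means correlated at 0.302 for libraries 6 and 5, 0.404 for 2 and 1 and 0.252 for 10 and 9, and below 0 otherwise. Since deviations within a group sum to 0, the negative values add little. The pairing is therefore from the data, and block values are given where they change a call. Exon lengths and gene positions are from GENCODE M21 (GRCm38), matched by gene ID for 99.5% of genes. The genes named are the 8 members, and from each list those that passed and the 2 most abundant. Members and lists were chosen with earlier results of these data known.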

Additional observations from a re-analysis of the deposited data

How the results depend on the processing

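The 8 members were refitted under 18 alternatives. The count of members called higher, 0 in limma on all libraries, was 2 with DESeq2, the replicate block, the title tag as a block or the GFP3 libraries only, 1 with a pseudocount of 5, and 0 to 2 when 1 library was left out (2 without IFNg 6, 1 without untreated 5). Members called lower stayed at 0 in all 18. For Cx3cl1 the log2 change was 3.43 in DESeq2, 3.33 with the replicate block, 3.33 with the tag as a block (adjusted p = 5.32e-04) and 3.40 in the GFP3 libraries, all past the threshold, and 2.73 to 3.998 with 1 library left out. Over all alternatives its adjusted p ran from 1.29e-05 to 0.914. For Csf1 it was 2.56 with a pseudocount of 5 (adjusted p = 0.0477), 2.80 in DESeq2, 2.65 with the replicate block, 2.65 with the tag as a block (0.0107) and 2.75 in the GFP3 libraries, and 2.24 to 3.01 with 1 library left out. Its adjusted p ran from 2.69e-06 to 0.762.

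The sign turned for 4 members that passed in no fit: Ccl20 was at 0.25 without libraries 9 and 10 and -0.64 to 0.46 with 1 library left out, Ccl25 at 0.0292 and -0.37 to 0.11 likewise, Il15 at -0.0283 in the GFP3 libraries and 0.12 to 0.77 with 1 left out, and Cxcl1 at -0.18 to 1.22 with 1 left out. Cxcl16 (-0.76 to -0.16) and Ccl28 (-0.69 to -0.21) kept their sign in all 18. Over all genes, 67 were higher and 2 lower. The higher count was 457 in DESeq2, 1331 in the GFP3 libraries, 108 with the tag as a block, 29 without libraries 1 and 2, 32 without 9 and 10, and 40 to 366 with 1 left out (366 without untreated 5, 44 without IFNg 10 and 40 without IFNg 2). The lower count was 8 in DESeq2, 12 in the GFP3 libraries, and 1 with a pseudocount of 0.5, a filter of 50, the replicate block, or without libraries 1 and 2 or 9 and 10, and 1 to 3 with 1 left out (3 without untreated 5, 1 without any of the other 5). The cause of these shifts was not tested. The replicate block changed no other member's call. Depth limits Cxcl1, Il15 and untreated Csf1 most, at 33 to 239, 40 to 147 and 36 to 76 reads.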

Other observations

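A cytokine of the listed genes below the filter on low values was picked after its values were seen. Il1a, an alarmin of the interleukin-1 family, had 14.5, 11.6 and 9.65 scaled counts in IFNg 6, 2 and 10, 40 reads in all, and 0 in each untreated library, where a count of 0 allows up to 2.58 to 3.16 scaled counts. Il1a was not in the main test. Il33, an alarmin of the same family, had 82.7, 894 and 891 scaled counts in IFNg 6, 2 and 10, against 37.9, 398 and 483 in untreated 5, 1 and 9. The ratios within pairs were 2.18 for 6 and 5, 2.24 for 2 and 1, and 1.85 for 10 and 9, and the limma adjusted p was 0.893. Of all genes tested, 15.1% were higher after IFNg in every pair. Il33 was also chosen after its values were seen. In both groups of Il33 the GFP1 library was the lowest.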
